A study of Rattus norvegicus with 6 samples.

Results

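The genes described here were 39 response genes of the interferon, NF-kB and cytokine pathways, named from a given list of symbols. Each was represented by its probe set with the highest mean over the 6 arrays, among probe sets annotated with 1 gene symbol. All 39 had such a probe set, out of 14217 genes on the array.

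The arrays (Affymetrix, whole rat genome) read mRNA from retinal ganglion cells (RGCs), the output neurons of the retina, taken from rats at postnatal day 6 (Sprague Dawley, per the methods), kept for 12 days in culture. RGCs were then exposed for 12 hours to glypican 4 (Gpc4), a heparan sulfate proteoglycan released by astrocytes, or to thrombospondin 1 (TSP1), which induces silent synapses, or were left Untreated, with 2 arrays in each group. The RGCs were purified by immunopanning, a step that first removes microglia and fibroblasts on a lectin, and every group, Untreated included, grew in medium with BDNF, CNTF, forskolin and an inhibitor of fibroblast growth. Each array carried RNA of 2 pooled wells, and by the methods 2 separate RGC cultures were used, so the replicate number is called culture 2 or culture 1 here. Gpc4 protein came from medium conditioned by HEK293, an established human kidney line, and TSP1 was a purchased recombinant mouse protein. Untreated RGCs received no protein, so a purified protein and whatever was carried over with it cannot be told apart in a comparison with Untreated. The 2 proteins differ in source, so the same holds for Gpc4 against TSP1.

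Type I interferons signal through JAK kinases to a complex that holds STAT2 and IRF9, which binds the interferon-stimulated response element (ISRE) and switches on antiviral genes, while interferon gamma acts on the gamma-activated site (GAS). Cytokines such as TNF and IL-1 and bacterial products act through IkB kinase to release NF-kB, which binds kB sites in the genes of chemokines, adhesion molecules and its own inhibitors. In neural tissue these genes are best known from microglia, astrocytes, fibroblasts and vessels, although neurons can also carry out the interferon response.

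Some promoters of the members held binding sequences of these pathways. RefSeq promoters of the rat build GRCr8, which run from upstream of a gene's start to shortly after it, were matched to 31 of the 39 members by symbol. No promoter was matched for Ifit1, Ifit2, Isg15, Mx2, Usp18, Ccl2, Birc3 and Relb. The ISRE core GAAANNGAAA, searched on both strands, was present in 12 of these 31 promoters (38.7%) and in 3.92% of all 33469 promoters of the table. The kB site GGGANTTTCC was present in 8 (25.8%) and in 0.362% of all promoters, and the GAS TTCNNNGAA in 6 (19.4%) and in 8.87% of all. A match is a run of letters, not a measured binding site. The stretches below are a choice from members described further down, among them Ifit3 and B2m, which showed no difference past the threshold. All lie upstream of the start, 5′ to 3′ on the gene's strand, with the matched letters in capitals, read on either strand. The first 4 hold an ISRE core: Ifitm3 at chr1:205541773-205541822 (minus strand), Gbp2 at chr2:234005676-234005725 (plus), Vcam1 at chr2:206742800-206742849 (minus) and Ifit3 at chr1:241527262-241527311 (plus). In the Ifitm3 stretch a GAS follows the ISRE core. B2m at chr3:129549160-129549222 (plus) holds an ISRE core and then a kB site, and Cxcl1 at chr14:17479376-17479425 (minus) and Nfkbiz at chr11:58251688-58251720 (plus) hold a kB site.
Ifitm3: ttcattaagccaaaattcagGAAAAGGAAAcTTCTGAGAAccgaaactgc
Gbp2: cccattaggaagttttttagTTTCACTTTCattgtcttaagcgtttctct
Vcam1: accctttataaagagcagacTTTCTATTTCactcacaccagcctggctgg
Ifit3: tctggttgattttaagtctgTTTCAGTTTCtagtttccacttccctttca
B2m: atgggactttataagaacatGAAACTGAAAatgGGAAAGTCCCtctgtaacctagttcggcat
Cxcl1: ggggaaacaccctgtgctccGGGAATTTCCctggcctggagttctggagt
Nfkbiz: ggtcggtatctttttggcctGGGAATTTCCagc

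The values are log2 RMA expression values, in which 1 unit is a doubling of signal, and array medians were 5.96 to 5.99. Detection calls do not come with these values, so a reading under the median may be background, and levels of different probe sets do not rank their mRNAs. Of the 39 members, 20 lay below the array median on all 6 arrays, 12 lay above it on all 6, and 7 lay on both sides. The label of RGCs was checked against neuronal markers, and none of the 10 measured RGC and neuron markers (among them Rbpms, Thy1, Sncg and Nefl) had a mean below the array median, and their mean log2 value lay between 11.78 and 11.86 on every array. Of the markers of other cells, 1 of 9 for fibroblast and matrix, 10 of 13 for microglia and macrophage, 6 of 10 for astrocytes and Muller glia and 5 of 6 for endothelium had a mean below the array median.

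**Figure D1:**
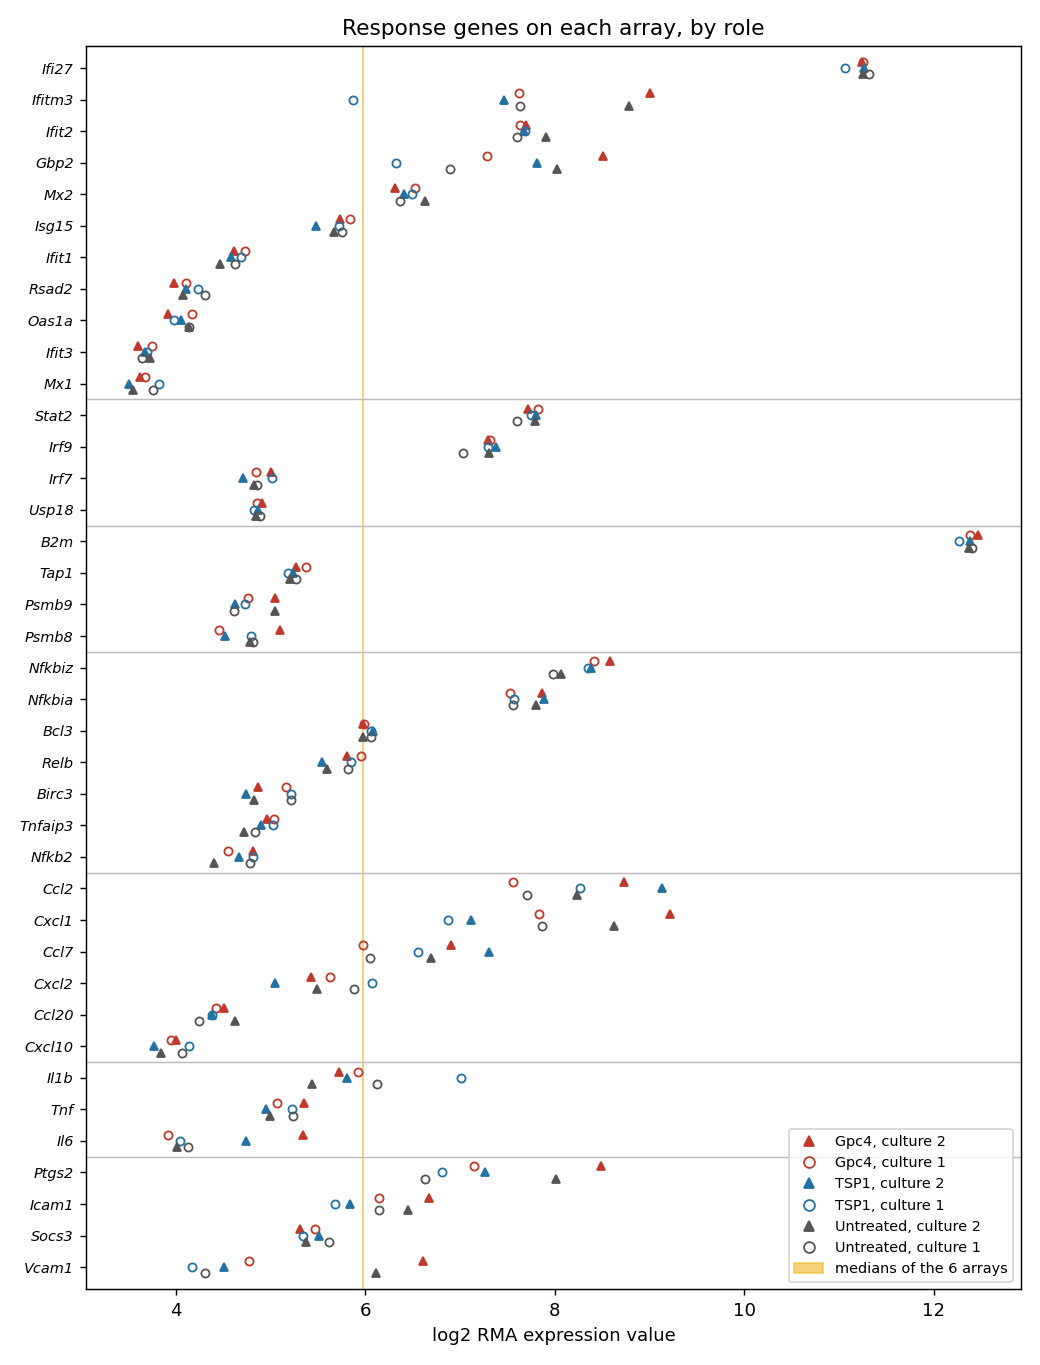
The log2 RMA value of each of the 39 members (rows, grouped by role from antiviral effectors at the top to adhesion, prostaglandin and feedback genes at the bottom) on each Gpc4, TSP1 and Untreated array. Triangles are culture 2, open circles culture 1, and the vertical band holds the medians of the 6 arrays (5.96 to 5.99); 20 members lie left of the band on all arrays.

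No transducer of the interferon signal passed the test. In the following, the pair of values of a group is given for culture 2 and then culture 1. Stat2, the subunit that brings the activation domain to the interferon-stimulated complex, had log2 values of 7.72 and 7.82 on the Gpc4 arrays. It had 7.80 and 7.75 on the TSP1 arrays and 7.79 and 7.60 on the Untreated arrays. All groups overlapped on this probe set. A second Stat2 probe set had 7.56 and 7.60 with Gpc4, 7.40 and 7.36 with TSP1 and 7.40 and 7.39 in Untreated RGCs. On it both Gpc4 arrays lay above all others. Its difference of Gpc4 over Untreated was 0.19 ± 0.08 (SE), which did not pass (limma, adjusted p = 0.740). The other 3 members of this role were Irf9, the DNA-binding subunit of that complex, Irf7, which drives interferon alpha genes, and Usp18, a protease that removes ISG15 and dampens the receptor. Their differences lay between 0.02 and 0.14 (log2) for Gpc4 over Untreated and between -0.02 and 0.17 for TSP1 over Untreated. A second Irf9 probe set lay outside the first range, at 0.245 ± 0.10 (SE) for Gpc4 over Untreated. It had the same sign in both cultures and did not pass (limma, adjusted p = 0.724). Irf7 and Usp18 stayed between 4.71 and 5.01, below the median, on all arrays.

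Among the 11 antiviral effectors, the classical interferon-induced genes lay low and differed little. Ifit1 and Ifit3 (binders of viral RNA), Isg15 (a ubiquitin-like modifier), Mx1 (an antiviral GTPase), Oas1a (which makes the activator of RNase L) and Rsad2 (viperin) lay between 3.50 and 5.84 on all arrays, below the array median. With Ifit2 and Mx2, which lay above it, these 8 genes differed by -0.15 to 0.13 (log2) for Gpc4 over Untreated, by -0.13 to 0.10 for TSP1 over Untreated, and by -0.20 to 0.12 for culture 2 over culture 1. Ifi27, an interferon-inducible mitochondrial protein, was high, with log2 values of 11.24 and 11.26 on the Gpc4 arrays, 11.27 and 11.07 on the TSP1 arrays and 11.25 and 11.32 on the Untreated arrays, and its groups overlapped.

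Ifitm3 and Gbp2 had larger differences than the other effectors. Ifitm3, a membrane protein that blocks the entry of enveloped viruses, had log2 values of 9.01 and 7.62 with Gpc4, 7.46 and 5.87 with TSP1 and 8.78 and 7.63 in Untreated RGCs. Both TSP1 arrays lay below every other array, while the Gpc4 and Untreated arrays overlapped. Ifitm3 averaged 6.67 ± 1.12 with TSP1 and 8.21 ± 0.81 in Untreated RGCs (SD, n = 2 each), a difference of -1.54 ± 0.62 (SE), or 2.91-fold lower with TSP1. This did not pass limma's test without the culture in the fit (adjusted p = 0.985), and passed with the culture as a replicate block (SE 0.12, adjusted p = 0.0145). The direct comparison gave 1.65 ± 0.62 for Gpc4 over TSP1, or 3.14-fold higher with Gpc4 (limma, adjusted p = 0.995, and adjusted p = 0.00236 with the replicate block).

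Gbp2, an interferon-inducible GTPase that attacks the vacuoles of intracellular microbes, had log2 values of 8.51 and 7.28 with Gpc4, 7.81 and 6.32 with TSP1 and 8.02 and 6.89 in Untreated RGCs. The 3 groups overlapped, but in each culture the Gpc4 array was the highest and the TSP1 array the lowest. The difference of Gpc4 over TSP1 was 0.83 ± 0.58 (SE), or 1.78-fold (limma, adjusted p = 0.995, and adjusted p = 0.0328 with the replicate block, SE 0.11). Against Untreated, Gbp2 differed by 0.44 with Gpc4 and by -0.39 with TSP1, neither past the threshold in either fit.

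Ifit3, whose promoter stretch is printed above with those of Ifitm3 and Gbp2, lay below the array median on every array. Such a reading may be background, so a fall could hardly show. Its log2 values were 3.60 and 3.75 with Gpc4, 3.67 and 3.69 with TSP1 and 3.73 and 3.64 in Untreated RGCs. Rat Ifitm3 has close relatives on the array, and 2 of them were set beside it. Ifitm2 had log2 values of 8.29 and 7.20 with Gpc4, 7.43 and 6.55 with TSP1 and 8.23 and 7.55 in Untreated RGCs. Ifitm1 had 6.68 and 5.42 with Gpc4, 4.71 and 4.58 with TSP1 and 6.63 and 5.53 in Untreated RGCs. Both were lowest on the TSP1 array of each culture, with TSP1 over Untreated differences of -0.90 and -1.44 (limma, adjusted p = 0.985 for both, and adjusted p = 0.104 for Ifitm2 and 0.356 for Ifitm1 with the replicate block). How far the probes of these related genes share signal was not tested.

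The antigen presentation genes showed no difference past the threshold. B2m, the light chain of MHC class I, had log2 values of 12.47 and 12.39 with Gpc4, 12.39 and 12.27 with TSP1 and 12.37 and 12.41 in Untreated RGCs, and these overlapped. The immunoproteasome subunits Psmb8 and Psmb9 and the peptide transporter Tap1 lay between 4.45 and 5.37 on all arrays. Their differences lay between -0.02 and 0.09 for Gpc4 over Untreated and between -0.16 and -0.03 for TSP1 over Untreated.

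Within the NF-kB system, the feedback gene Nfkbiz was the member with the smallest p for Gpc4. Nfkbiz encodes a nuclear IkB protein that works as a cofactor of NF-kB at genes such as Il6, and had log2 values of 8.58 and 8.41 with Gpc4, 8.38 and 8.35 with TSP1 and 8.07 and 7.98 in Untreated RGCs. The 3 groups did not overlap, with Gpc4 highest and Untreated lowest. It averaged 8.50 ± 0.12 with Gpc4 and 8.03 ± 0.06 in Untreated RGCs (SD, n = 2 each), a difference of 0.47 ± 0.10 (SE), which did not pass (limma, adjusted p = 0.332, and 0.154 with the replicate block).

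For TSP1 over Untreated the Nfkbiz difference was 0.34 ± 0.10 (limma, adjusted p = 0.985, and 0.651 with the replicate block). A second Nfkbiz probe set of lower signal went the other way, with log2 values of 5.80 and 5.74 with Gpc4, 5.75 and 6.12 with TSP1 and 5.89 and 6.07 in Untreated RGCs. On it the difference of Gpc4 over Untreated was -0.21 ± 0.13, so the Nfkbiz difference rests on 1 of its 2 probe sets.

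The other 6 genes of this role were Nfkbia (IkB alpha, the classical inhibitor that NF-kB itself induces), Tnfaip3 (the ubiquitin-editing inhibitor A20), Bcl3 (a nuclear IkB protein), Birc3 (a ubiquitin ligase of the TNF receptor complex) and the subunits Relb and Nfkb2. Their differences lay between -0.04 and 0.22 for Gpc4 over Untreated and between -0.04 and 0.19 for TSP1 over Untreated. Tnfaip3 had the largest for Gpc4 among the probe sets used (limma, adjusted p = 0.724). Its log2 values were 4.96 and 5.03 on Gpc4 arrays and 4.72 and 4.83 on Untreated arrays. Tnfaip3 was below the array median on every array. The further Bcl3 probe sets, also below the median on every array, went the other way from the one used. For Gpc4 over Untreated they differed by 0.11 and 0.255, against -0.04 (limma, adjusted p = 0.905, 0.690 and 0.962).

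None of the 6 chemokines passed in a treatment comparison over all probe sets, with or without the replicate block. Cxcl1, which draws neutrophils, had log2 values of 9.22 and 7.83 with Gpc4, 7.12 and 6.87 with TSP1 and 8.62 and 7.87 in Untreated RGCs. Both TSP1 arrays lay below all 4 others. The difference was -1.25 ± 0.42 (SE) for TSP1 over Untreated, or 2.38-fold lower with TSP1, and 1.53 ± 0.42 for Gpc4 over TSP1, or 2.89-fold. Neither passed (limma, adjusted p = 0.985 and 0.796, and 0.400 and 0.0545 with the replicate block). With the block and probe sets of a mean log2 value under 6 left out, Cxcl1 passed for Gpc4 over TSP1.

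Ccl2, which draws monocytes, had log2 values of 8.73 and 7.56 with Gpc4, 9.13 and 8.27 with TSP1 and 8.23 and 7.71 in Untreated RGCs. Its close relative Ccl7 had 6.90 and 5.97 with Gpc4, 7.30 and 6.56 with TSP1 and 6.69 and 6.05 in Untreated RGCs. In each culture the TSP1 array was the highest for both genes, and for Ccl2 the TSP1 and Untreated arrays did not overlap. The differences of TSP1 over Untreated were 0.73 ± 0.40 for Ccl2, or 1.66-fold, and 0.56 ± 0.36 for Ccl7, or 1.47-fold, and neither passed (limma, adjusted p = 0.985 for both, and 0.478 and 0.400 with the replicate block). Ccl20, Cxcl2 and Cxcl10 lay near or below the array median, and their differences over Untreated stayed between -0.16 and 0.04 with Gpc4 and between -0.13 and 0.01 with TSP1.

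Of the cytokines, Tnf lay between 4.95 and 5.35 on all arrays, and Il6 stood out on single arrays. Il6 had log2 values of 5.34 and 3.92 with Gpc4, 4.74 and 4.04 with TSP1 and 4.01 and 4.13 in Untreated RGCs. The Gpc4 and TSP1 arrays of culture 2 were the highest, and in culture 1 both lay below the Untreated array, so the Gpc4 difference of 0.56 ± 0.41 came from 1 culture (limma, adjusted p = 0.837). Il1b, the inflammasome-processed cytokine, had 5.72 and 5.92 with Gpc4, 5.81 and 7.01 with TSP1 and 5.44 and 6.12 in Untreated RGCs, with the TSP1 array of culture 1 far above the rest. Its difference of TSP1 over Untreated was 0.63 ± 0.37 (limma, adjusted p = 0.985, and 0.679 with the replicate block).

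The adhesion molecules and Ptgs2 followed Cxcl1 in lying lowest with TSP1 in culture 2. Icam1, a ligand of leukocyte integrins, had log2 values of 6.67 and 6.14 with Gpc4, 5.84 and 5.68 with TSP1 and 6.45 and 6.14 in Untreated RGCs. Both TSP1 arrays lay below all others, with a difference of -0.54 ± 0.18 from Untreated (limma, adjusted p = 0.985, and 0.502 with the replicate block) and of 0.65 ± 0.18 for Gpc4 over TSP1 (limma, adjusted p = 0.822, and 0.0998 with the replicate block).

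Vcam1, the other integrin ligand, had 6.61 and 4.77 with Gpc4, 4.51 and 4.17 with TSP1 and 6.11 and 4.31 in Untreated RGCs. Its TSP1 value was far below Untreated in culture 2 (-1.60) and little below it in culture 1 (-0.14), and the Gpc4 and TSP1 arrays did not overlap (1.35 ± 0.67, limma, adjusted p = 0.995, and 0.310 with the replicate block). Ptgs2, the inducible cyclooxygenase that makes prostaglandins and is also induced by activity in neurons, had 8.49 and 7.15 with Gpc4, 7.26 and 6.81 with TSP1 and 8.01 and 6.63 in Untreated RGCs. The Ptgs2 groups overlapped, and the Gpc4 array was the highest in each culture. Socs3, the feedback inhibitor of cytokine receptors that signal through STAT3, lay between 5.31 and 5.62 throughout.

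**Figure D2:**
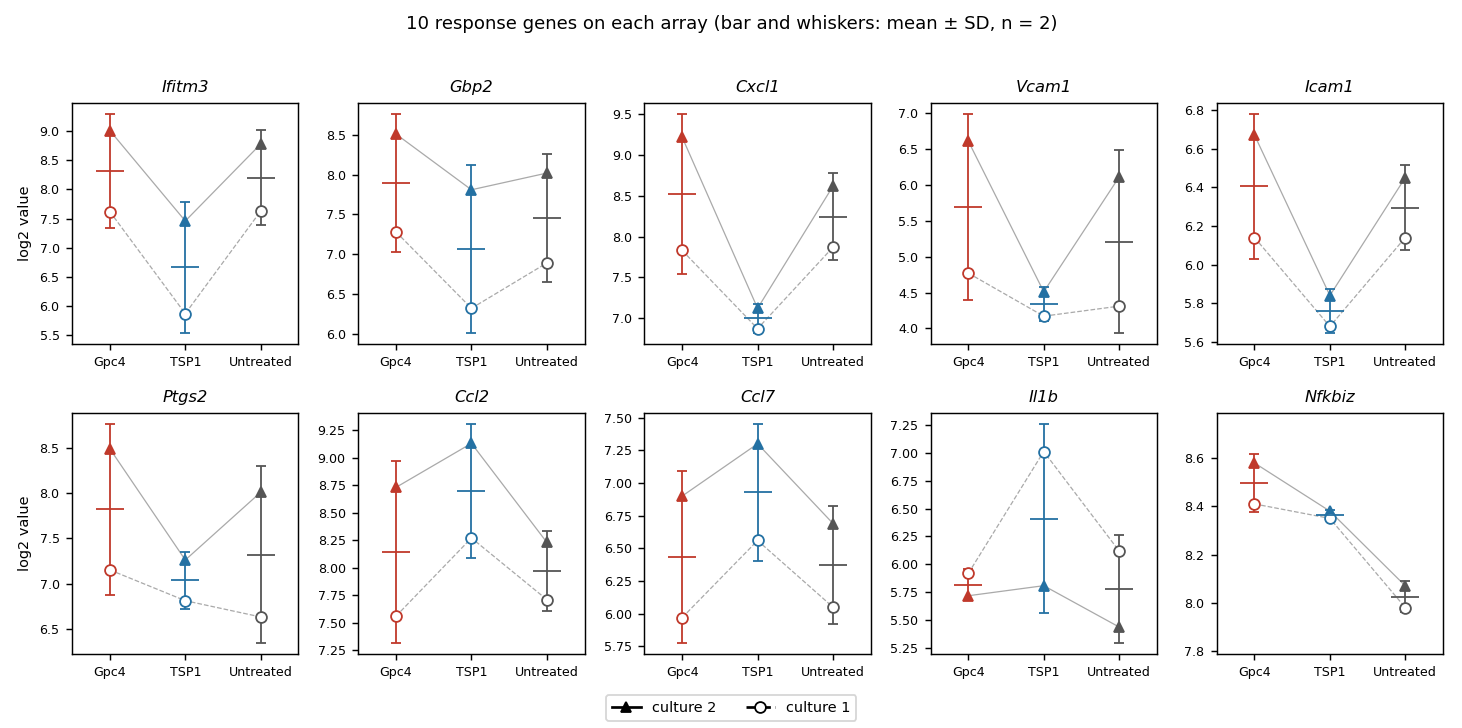
Log2 RMA values (vertical axes, each panel with its own scale) of 10 members on the Gpc4, TSP1 and Untreated arrays, left to right. Filled triangles joined by solid lines are culture 2 and open circles joined by dashed lines culture 1, with the mean and SD of the 2 arrays as a bar and whiskers; Ifitm3, Cxcl1 and Icam1 have both TSP1 arrays below all others, and Il1b is the panel in which culture 1 is the higher culture.

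Counted over the whole list, few members passed in the treatment comparisons. The members were chosen with earlier results of these data known. A share of members above that of all genes, here and below, may therefore be built into the list. For Gpc4 against Untreated, 0 of 39 members passed limma's adjusted threshold of 0.05, where 0.0838% of all 31042 probe sets passed in either direction, and 2 members (Nfkbiz and Tnfaip3) had an unadjusted p under 0.05, as 6.88% of probe sets had. With the replicate block 0 members passed as well, where 0.184% of probe sets were higher and 0.0226% lower. The methods' t-test gave 1 member at an unadjusted p under 0.05, Nfkbiz, and 5.49% of probe sets. Neither count of members was above the share over all probe sets. No member reached a difference of 0.58 (log2) with the same sign in both cultures, a size that 0.492% of genes reached upward and 0.176% downward. The median difference over the members was 0.07, against -0.01 over all genes.

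For TSP1 against Untreated, 0 of 39 members passed limma's threshold, as did 0% of all probe sets, and 4 members (Ifitm3, Nfkbiz, Cxcl1 and Icam1) had an unadjusted p under 0.05, as 4.4% of probe sets had. With the replicate block 1 member was lower, Ifitm3, where 0.00966% of probe sets were lower, and 0 were higher, where 0.00322% were. The methods' t-test gave 1 member at an unadjusted p under 0.05, again Nfkbiz, and 4.13% of probe sets. By size, 3 members were lower by at least 0.58 with the same sign in both cultures (Ifitm3, Cxcl1 and Vcam1, 7.69% of members), where 0.211% of all genes were, and 2 were higher (Ccl2 and Il1b, 5.13%), where 0.169% were. The median difference was -0.03, against -0.005 over all genes.

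For Gpc4 against TSP1, which shares arrays with both comparisons above, 0 of 39 members passed limma's threshold, where 0.0612% of probe sets passed, and 3 (Ifitm3, Cxcl1 and Icam1) had an unadjusted p under 0.05, as 4.51% of probe sets had. The methods' t-test gave 1, Bcl3, and 4.62% of probe sets. With the replicate block 2 were higher, Ifitm3 and Gbp2, where 0.226% of probe sets were, and 0 were lower, where 0.0322% were. By size, 6 members were higher under Gpc4 relative to TSP1 (Ifitm3, Gbp2, Cxcl1, Icam1, Vcam1 and Ptgs2, 15.4%), where 0.661% of genes were, and 1 was lower (Il1b, 2.56%), where 0.183% were. Each call with the replicate block was lost when any 1 of the 6 arrays was left out. That fit keeps 1 residual degree of freedom, so a loss was likely for any gene.

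**Figure D3:**
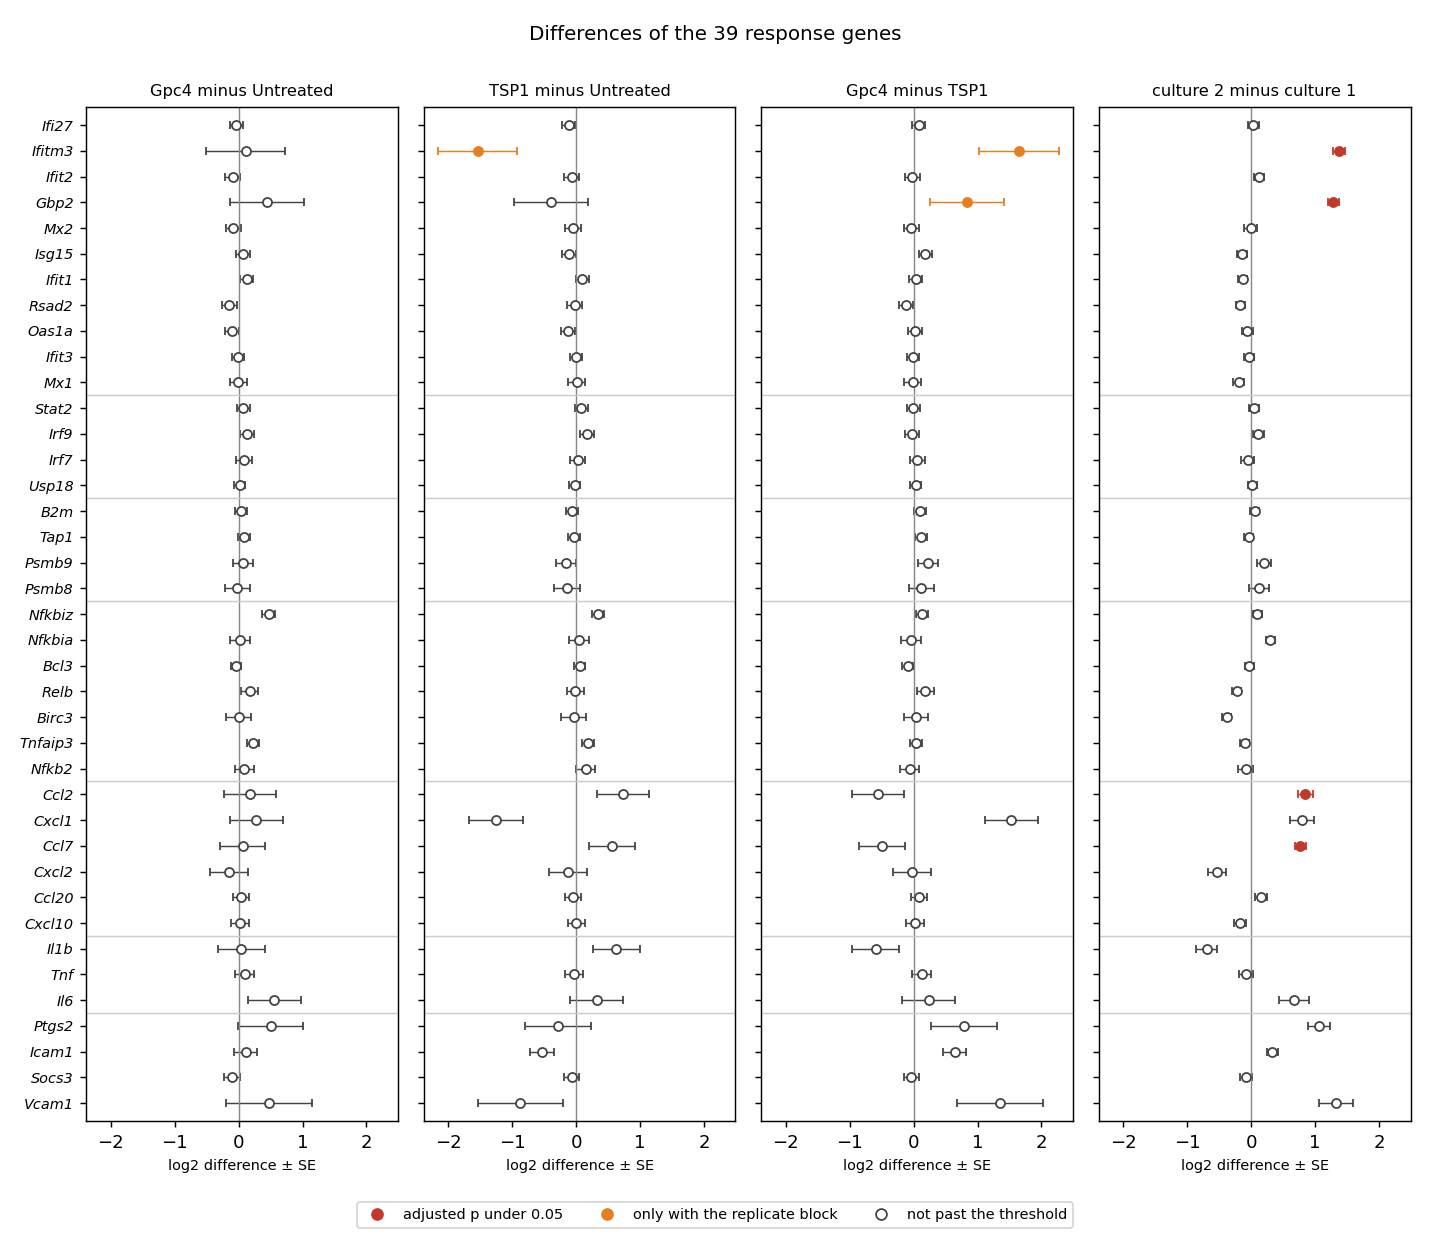
Log2 differences (horizontal axes, with the SE of the fit as whiskers) of the 39 members, in rows by role, for Gpc4 minus Untreated, TSP1 minus Untreated, Gpc4 minus TSP1 and culture 2 minus culture 1. Filled red points passed limma's adjusted threshold (4, all in the culture panel), filled orange points passed only with the replicate block (Ifitm3 in 2 panels and Gbp2 in 1), and open points did not pass.

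More members passed between cultures (3 arrays each) than between treatments (2 arrays each). The culture comparison comes from the fit with the replicate block, in which 0, 1 and 2 members passed between treatments. With treatment left out of the culture fit, 0 members passed. With the treatment in the fit, 4 of 39 members were higher in culture 2 than in culture 1, where 0.432% of probe sets were, and 0 were lower, where 0.129% were. An unadjusted p under 0.05 was reached by 16 members (limma), as by 11.3% of probe sets. Of any size, 10 members were higher in culture 2 in all 3 groups and 9 were lower. Among the lower were Cxcl2 (-0.54), Birc3 (-0.38) and Relb (-0.23), none past the threshold. Ifitm3 was 1.38 ± 0.09 (SE) higher in culture 2, or 2.60-fold (limma, adjusted p = 0.00158), and Gbp2 1.28 ± 0.09, or 2.43-fold (adjusted p = 0.00158). Ccl2 was higher by 0.85 ± 0.12, or 1.80-fold (adjusted p = 0.0257), and Ccl7 by 0.77 ± 0.08, or 1.71-fold (adjusted p = 0.00657). These 4 genes were higher in culture 2 in each of the 3 groups. Each culture is a single culture, so these p-values measure only the spread between its 3 arrays, and all 4 calls were lost when any 1 array was left out. Here too the fit then keeps 1 residual degree of freedom.

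Ptgs2 and Vcam1 differed by 1.06 ± 0.17 and 1.33 ± 0.26 for culture 2 over culture 1 and did not pass (limma, adjusted p = 0.0514 and 0.109), though Ptgs2 passed where probe sets with a mean log2 value under 6 were left out or the variance was trended, and Vcam1 with the trend only. By size, 7 members were higher in culture 2 in all 3 groups (those 6 and Cxcl1, 17.9%), where 0.851% of genes were, and 1 was lower, Il1b (2.56%), where 0.225% were. Il1b differed by -0.69 ± 0.16 (limma, adjusted p = 0.183). The median difference over the 39 members was 0.02, against 0.00 over all genes.

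The markers of other cell types also differed between the cultures and, in part, with TSP1. In bulk RNA, fewer cells of a type and less RNA per cell cannot be told apart. All 9 fibroblast and matrix markers were higher in culture 2, and Dcn, Lum and Postn, genes of the extracellular matrix, passed (1.54, 1.79 and 0.71, limma, adjusted p = 0.0102, 0.00307 and 0.00611). Their summed linear signal over the 9 markers was 2014, 2590 and 2286 in culture 2 (Gpc4, TSP1 and Untreated arrays) and 1305, 1453 and 1277 in culture 1.

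Ifitm3, Gbp2, Cxcl1, Icam1, Vcam1 and Ptgs2 had their lowest culture 2 value with TSP1, and so had Dcn, Lum and Pdgfra, a receptor of fibroblasts and glial progenitors. Dcn had log2 values of 7.48 and 6.41 with Gpc4, 5.88 and 4.48 with TSP1 and 7.75 and 5.59 in Untreated RGCs. Lum had 6.99 and 5.26 with Gpc4, 4.87 and 3.49 with TSP1 and 6.95 and 4.68 in Untreated RGCs. Dcn and Lum were 1.77 and 1.95 higher with Gpc4 relative to TSP1 (limma, adjusted p = 0.995 for both, and 0.0262 and 0.00865 with the replicate block). Over Untreated their Gpc4 differences were 0.28 and 0.31, not past the threshold in either fit.

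Not all matrix markers went that way. Postn had 8.24 and 7.62 with Gpc4, 9.16 and 8.43 with TSP1 and 8.19 and 7.42 in Untreated RGCs. It was highest with TSP1 in each culture, as Ccl2 and Ccl7 were (0.99 for TSP1 over Untreated, limma, adjusted p = 0.985, and 0.0402 with the replicate block). Over the 9 fibroblast and matrix markers, 4 differences of TSP1 over Untreated lay above zero and 5 below, between -1.64 and 0.99, so the list did not lie on one side. The part of these cells in the member results was not tested.

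The microglia and macrophage markers ran opposite to the fibroblast markers between cultures and alongside Il1b. All 13 were lower in culture 2 than in culture 1, and the 4 that passed were Tyrobp (-0.95), a signalling adaptor of myeloid cells, and the complement subunits C1qa (-0.99), C1qb (-1.09) and C1qc (-1.32) (limma, adjusted p = 0.0150, 0.0218, 0.00657 and 0.00468). Their summed linear signal was 509, 482 and 471 in culture 2 (Gpc4, TSP1 and Untreated arrays) and 668, 810 and 742 in culture 1, where the TSP1 array of culture 1 had the highest value, as it had for Il1b. Of the 10 astrocyte and Muller glia markers, 6 differences of culture 2 over culture 1 lay above zero and 4 below, and Gja1 and Vim passed as higher (1.12 and 0.80, limma, adjusted p = 0.00653 and 0.00468), while no RGC and neuron marker passed. In the treatment comparisons no glial marker passed in either fit. For Gpc4 over Untreated, TSP1 over Untreated and Gpc4 over TSP1, 3, 1 and 2 had an unadjusted p under 0.05 (limma), where 6.88%, 4.4% and 4.51% of all probe sets had. For Gpc4 over TSP1, 6 glial differences lay above zero and 4 below. The largest were Fgfr3 (0.585) and Gfap (0.57), both below the array median on every array. Of the 6 endothelial markers, 1 passed with the replicate block, for Gpc4 over TSP1. Kdr, a VEGF receptor, had log2 values of 8.0 and 7.86 with Gpc4, 6.83 and 6.77 with TSP1 and 7.36 and 6.84 in Untreated RGCs, and was 1.13 higher with Gpc4 compared with TSP1 (limma, adjusted p = 0.109, and 0.0171 with the replicate block), while the other 5 lay between -0.02 and 0.17. The part of microglia, astrocytes or endothelium in the member results was not tested.

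**Figure D4:**
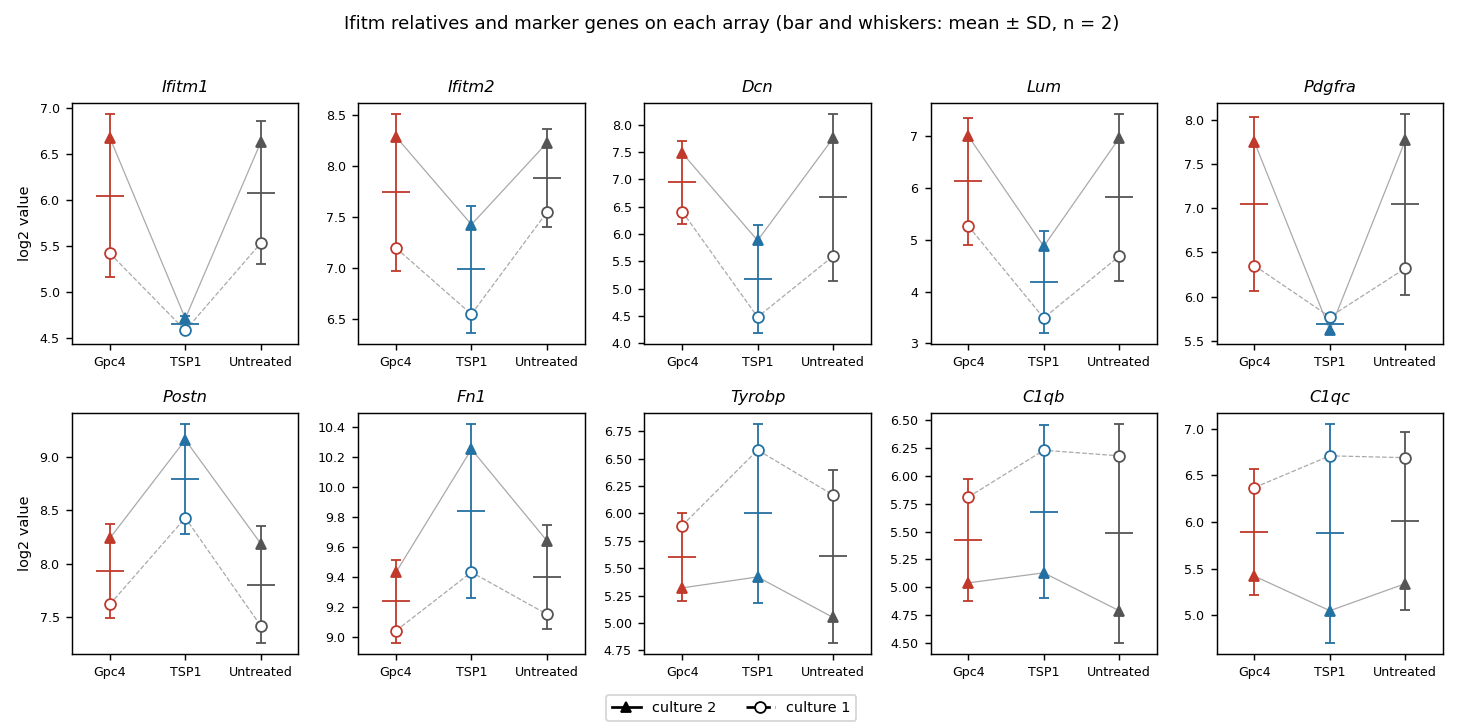
Log2 RMA values (vertical axes, each panel with its own scale) of 2 Ifitm relatives, 5 fibroblast and matrix markers and 3 microglia markers on the Gpc4, TSP1 and Untreated arrays, left to right. Filled triangles joined by solid lines are culture 2, open circles joined by dashed lines culture 1, with the mean and SD of 2 arrays; Ifitm1, Ifitm2, Dcn, Lum and Pdgfra are lowest with TSP1 in each culture, Postn and Fn1 highest with TSP1, and the microglia genes Tyrobp, C1qb and C1qc higher in culture 1.

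No receptor or kinase of these pathways passed the test. Of 16 measured interferon and pattern receptors, kinases and factors (such as Ifnar1, Ifngr1, Jak1, Tyk2 and Tbk1), 0 passed limma's threshold in any of the 4 comparisons, and 0, 0, 1 and 2 had an unadjusted p under 0.05 for Gpc4 over Untreated, TSP1 over Untreated, Gpc4 over TSP1 and culture 2 over culture 1, where 6.88%, 4.4%, 4.51% and 11.3% of all probe sets had. Of 17 measured NF-kB and cytokine receptors and kinases (such as Rela, Ikbkb, Chuk and Tnfrsf1a), 0 passed, and 1, 0, 2 and 1 had such a p. With the replicate block 0 genes of both lists passed in the treatment comparisons.

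The further interferon-stimulated genes showed 1 call in all. Of 31 measured, 22 had a mean below the array median, and 0 passed limma's threshold or its fit with the replicate block in the treatment comparisons, with 1, 4 and 3 at an unadjusted p under 0.05 for Gpc4 over Untreated, TSP1 over Untreated and Gpc4 over TSP1, where 6.88%, 4.4% and 4.51% of all probe sets had. Their median differences were -0.03, -0.03 and 0.02. The 4 for TSP1 over Untreated were Ifitm1, Parp14, Tap2 and Lgals9, all lower with TSP1. Parp14 had log2 values of 5.82 and 5.79 with Gpc4, 5.36 and 5.50 with TSP1 and 5.78 and 5.90 in Untreated RGCs. Its TSP1 over Untreated difference was -0.41 ± 0.10 (SE, limma, adjusted p = 0.985, and 0.614 with the replicate block). Between cultures 1 passed, Ifitm2, at 0.88 ± 0.09 higher in culture 2 (limma, adjusted p = 0.00618). Of 13 measured genes of the gp130 and STAT3 arm, which CNTF in the medium uses, 0 passed in any comparison, with 1, 1, 1 and 0 at an unadjusted p under 0.05. The transcription factor Cebpd of that arm had the largest difference, with log2 values of 6.25 and 6.13 with Gpc4, 5.39 and 5.49 with TSP1 and 6.54 and 6.20 in Untreated RGCs (-0.93 ± 0.13 for TSP1 over Untreated, limma, adjusted p = 0.985, and 0.104 with the replicate block). The TSP1 values of Cebpd did not overlap with either other group.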

How the data were processed

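The authors used Affymetrix Expression Console on the scans; its version is not given in the sources used here. What they deposited is log2 RMA values (background corrected, normalized between arrays and summarized over probes) of 31042 probe sets, rounded to 2 decimals. No further normalization or filter was applied. Symbols came from the platform annotation, in which 20826 probe sets have 1 symbol, 436 several and 9780 none, and all 39 member symbols are the same in the RefSeq gene table of GRCr8. The members, their roles, the other gene lists and the tests were chosen with earlier results of these data known.

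Groups were compared with limma 3.58.1 under R 4.3.3 (functions lmFit and eBayes, 1 mean per group, 6 arrays, 3 residual degrees of freedom), two-sided, with Benjamini-Hochberg adjustment over 31042 probe sets and a threshold of 0.05. The replicate numbers pair the arrays: the methods state 2 cultures, and across probe sets the deviations of arrays with the same number correlated at 0.29 to 0.37. The fit with this replicate block (2 residual degrees of freedom) is given wherever it changed a call, and its coefficient is the culture comparison. The number of arrays limits the precision. The fits were tested on simulated data. Members with a difference of at least 0.58 and the same sign in every pair of arrays, or past a threshold, and the 6 with the highest mean were given on every array, and Tnfaip3, Il6 and Ifit3 were added after their values were seen. Python 3.11.15 with matplotlib 3.10.9 drew the figures. Alternatives were median centring, a quantile step, a filter at a mean of 6, the replicate block alone or with this filter, a trended variance, the 2 compared groups alone, no treatment group in the culture fit, the methods' t-test, an adjusted p under 0.10, a mean over a gene's probe sets and leaving out each array.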

Additional observations from a re-analysis of the deposited data

Results flagged for a closer look

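Ifitm3 and Gbp2 differed between the Gpc4 and TSP1 arrays when the difference itself was tested with the culture as a replicate block. Ifitm3 was 1.65 (log2) higher with Gpc4 than with TSP1 (limma, adjusted p = 0.00236), and higher in 2 of 2 cultures. Gbp2 was 0.83 higher (limma, adjusted p = 0.0328), also in 2 of 2 cultures. Without the block neither difference passed (adjusted p = 0.995 for both). Each call with the block was lost when any 1 array was left out, as given above. With 1 array left out and no block, the difference ran from 0.855 to 2.445 for Ifitm3 and from 0.085 to 1.575 for Gbp2. The part of other cell types in these differences was not tested.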

How the results depend on the processing

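The limit of these data is their number, with 2 arrays a group and 1 residual degree of freedom once an array is left out of the culture fit. Low signal limits 20 of the 39 members, for which a small difference may understate the change in mRNA.

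For the members, counts past the threshold were 0, 0 and 0 for Gpc4 over Untreated, TSP1 over Untreated and Gpc4 over TSP1, and stayed at 0 with median centring, a quantile step, a filter on probe sets (mean log2 value of at least 6), a trended variance and each array left out. The replicate block gave 0, 1 and 2 members, and the block with a mean log2 value of at least 6 gave 0, 1 and 4 (Ifitm3, Gbp2, Cxcl1 and Icam1). The methods' t-test at an unadjusted p under 0.05 gave 1, 1 and 1. With the replicate block and 1 array left out, chosen after seeing the data, all were 0. Over all probe sets, the 26, 0 and 19 calls became 64, 4 and 80 with the replicate block, and 90, 8 and 100 with the block and the filter. They became 46, 0 and 37 at an adjusted p under 0.10, and 49, 0 and 39 with a trended variance. Gpc4 over Untreated gave 13 with the 2 groups alone, and Gpc4 over TSP1 gave 31 with the filter. The methods' t-test gave 1704, 1280 and 1433 unadjusted and 0, 0 and 0 after Benjamini-Hochberg. Leaving out 1 array gave 2 to 13, 0 to 1 (1 without the Untreated array of culture 1) and 2 to 13.

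For culture 2 over culture 1, 4 members and 174 probe sets passed. These became 284 probe sets at an adjusted p under 0.10, 264 with a trended variance (members Vcam1 and Ptgs2 added, and Ptgs2 also with the filter at a mean of 6, which gave 5 members), and 69 with 0 members when treatment was not in the fit. Without any 1 array, controls included, 0 members and 0 probe sets passed, while Ifitm3 stayed between 1.27 and 1.49, Gbp2 between 1.18 and 1.36, Ccl2 between 0.69 and 1.02 and Ccl7 between 0.69 and 0.84 (adjusted p from 0.52 to 0.73). Signs were followed for the 13 members given on every array by the rule, before Tnfaip3, Il6 and Ifit3 were added. No called difference of these 13 changed sign, while uncalled ones did so in 34, 10, 10 and 5 combinations of member and setting (Gpc4 over Untreated, TSP1 over Untreated, Gpc4 over TSP1 and culture 2 over culture 1). Of the 10 further probe sets of members, 5, 4 and 6 had the opposite sign to the one used in the 3 treatment comparisons and 4 in the culture comparison, by at most 0.26, and 0 passed. The replicate block changed no other member call. The cause of these changes was not tested.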
